A study of Oncorhynchus mykiss with 24 samples.

Results

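The response of trout liver to dietary 17β-estradiol (E2) was described from the 4 arrays titled with that compound, out of 24 arrays in the series. They were chosen by title and carry 2 treated RNA samples, each hybridised once with the treated RNA in Cy3 and once in Cy5. The E2 fish received 5 ppm of the hormone in the diet, and the reference on every array was 1 pool of equal RNA amounts from the livers of 12 fish fed 0.15% dimethyl sulfoxide as vehicle. All fish were juvenile rainbow trout (Oncorhynchus mykiss) of the Mt. Shasta strain, 12 to 18 months old, kept on a semi-purified casein diet with 2 tanks of 6 fish per treatment, fed their diet for 12 days and sampled on day 13. The other 20 arrays hold 10 RNA samples, 2 for each of 5 diets: 500 ppm of β-naphthoflavone (BNF), 500 or 1500 ppm of indole-3-carbinol (I3C), and 500 or 1500 ppm of 3,3'-diindolylmethane (DIM). The labels do not tie a treated RNA sample to a fish or a tank, so that p-values rest on the spread between RNA samples, part of which may be technical. That spread is estimated over the samples of all diets together. The SD of the 2 E2 samples, printed beside a p-value, is therefore only a part of it. The labels also give compounds as abbreviations, which are read here in their usual sense.

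E2 is the main estrogen of vertebrates. It acts through nuclear estrogen receptors that bind DNA and change transcription of target genes. In egg-laying vertebrates such as trout the liver is a main target, and estrogen makes it produce the yolk precursor vitellogenin and egg envelope proteins. BNF, a man-made flavone, is a ligand of the aryl hydrocarbon receptor. I3C comes from cruciferous vegetables and condenses in acid to its dimer DIM.

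Values are log2 ratios of treated over pool RNA, averaged over the 2 adjacent spots of a pair and over both arrays of a dye swap. A pair is given by the numbers of its spots, because the annotation used here names 49 of the 4368 pairs with a gene (32 symbols) and leaves 4319 unnamed. Higher and lower are in the likely direction only. In the deposited values strong features have opposite signs on swapped arrays, so 1 dye is the numerator throughout a swap. The labels do not name the numerator, and Cy3 over Cy5 was taken because the labels put Cy3 in channel 1. With Cy5 as the numerator every direction given here would be the opposite. The 2 arrays of E2 sample 1 correlated negatively with arrays of the same dye orientation (median r across spots of -0.58 and -0.62), against 0.47 and 0.69 for those of E2 sample 2. The labels do not settle which way these arrays run. They were turned, because the part of the signal that stays with the dye correlated at -0.80 (median) with that of the other samples, against 0.84 in E2 sample 2 and 0.55 to 0.89 in the samples of other diets that were not turned. One sample of DIM at 500 ppm was turned for the same reason. The spots of a pair correlated at 0.83 to 0.90 within the E2 arrays, and at 0.41 to 0.94 over all 24 arrays. Spot intensities were not used here, so the liver label could not be checked against levels of its markers, and the number of arrays limits the precision.

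The first comparison asked which transcripts differed between livers of E2-fed fish and the vehicle pool. In limma, with Benjamini-Hochberg adjustment over all 4368 pairs, 261 pairs had an adjusted p under 0.05 in E2 (5.98% of the pairs tested) and are termed called. Of these, 102 were higher in E2 (2.34%) and 159 were lower (3.64%). The higher pairs had a median log2 ratio of 0.999 and the lower pairs one of -0.81, while the 5th and 95th percentiles of all pairs were -0.50 and 0.37. The call nearest to 0 was at 0.49 among the higher pairs and at -0.47 among the lower pairs. The mean log2 ratio was above 2 for 7 called pairs and below -2 for 3, and above 1 for 51 and below -1 for 45. The pool is 1 control sample on every array, so this test leaves out the spread among control fish. With the deposited signs of the turned arrays, 0 pairs were called and 138 had an unadjusted p under 0.05, against 635 with the arrays turned. From 1 E2 sample, taken to vary like the samples of the other diets, the count was 127 without sample 1 and 156 without sample 2, with 112 and 142 of them shared with the 261.

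The 2 E2 samples moved the same way in all 261 called pairs. These pairs were called on the mean of the same 2 samples, so their agreement follows largely from the choice and is no test. Over all pairs their log2 ratios correlated at 0.46 (Pearson's r across features of the same arrays, which are not independent), against 0.16 to 0.85 between the samples of the other diets. The rank correlation was 0.11 and the median absolute difference between the samples was 0.30. Each single array carried dye bias of about the size of the diet component, which also holds noise. The dye component had a standard deviation over pairs of 0.466 and 0.416 in E2 samples 1 and 2, against 0.453 and 0.385 for the diet component. In the direction of treated over pool, the 2 arrays of a swap correlated over all pairs at -0.03 in sample 1 and -0.08 in sample 2. All 4 arrays agreed in sign for 557 of the 4368 pairs (12.8%), for 95 of the 102 pairs called higher and for 124 of the 159 called lower. The share over all pairs is about the one that 4 independent random signs would give. The counts among called pairs again rest on pairs chosen from the same arrays.

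**Figure D1:**
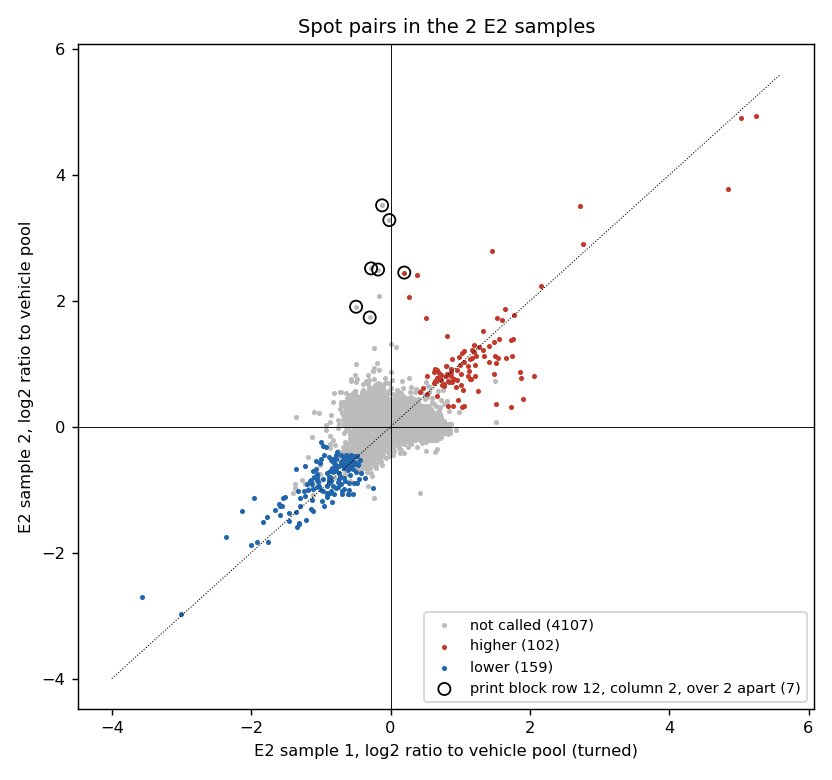
Log2 ratio to the vehicle pool of each of the 4368 spot pairs in E2 sample 1 (horizontal axis, turned) and E2 sample 2 (vertical axis), with the 102 pairs called higher in red, the 159 called lower in blue and the dotted line marking equal values. The called pairs have means from -3.14 to 5.09, and 11 of them, all called higher, differ by over 1 between the samples; the 7 ringed pairs of 1 print block, 1 of them called, lie over 2 higher in sample 2.

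The most strongly changed features in E2 livers carry no gene name here. The highest was the pair of spots 10020301 and 10020302. With E2 in Cy3 and in Cy5 it had log2 ratios of 5.65 and 4.86 in sample 1 and of 5.30 and 4.56 in sample 2. Every array was thus far above 0, and the mean was 5.09 ± 0.23 (SD, n = 2), a 34.1-fold higher signal in E2 than in the pool (limma adjusted p = 1.2e-10). The next was the pair of spots 12020713 and 12020714, at 5.57 and 4.48 in sample 1 and at 5.16 and 4.66 in sample 2, with a mean of 4.97 ± 0.08 (SD, n = 2; 31.3-fold, limma adjusted p = 3.8e-11). At the other end, spots 3010407 and 3010408 had -3.50 and -3.63 in sample 1 and -3.03 and -2.39 in sample 2. Their mean of -3.14 ± 0.61 (SD, n = 2) is an 8.81-fold lower signal in E2 than in the pool (limma adjusted p = 3.9e-06). Spots 9031205 and 9031206 had -2.23 and -3.78 in sample 1 and -2.79 and -3.16 in sample 2, with a mean of -2.99 ± 0.02 (SD, n = 2; 7.93-fold lower in E2, limma adjusted p = 5.4e-09). In all 4 of these pairs no array crossed 0, which was a condition of their choice. The 10 highest called pairs spanned log2 ratios of 1.64 to 5.09 (3.12-fold to 34.1-fold) and the 10 lowest spanned -1.55 to -3.14 (2.93-fold to 8.81-fold), and 0 of the 20 have a name.

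Of the 49 named pairs, 5 were called in E2 (10.2%), beside 5.98% of all pairs; 1 was higher and 4 were lower. The named pairs that were not called ranged from -0.73 to 0.41. Below 0 lay 36 of the 49 named pairs (73.5%), against 45.2% of all pairs. The 49 pairs cover 32 symbols, so repeats of 1 gene count more than once in these shares (LOC100136295 gives 5 of the 36). Of 16 listed estrogen-responsive liver genes (vitellogenins, estrogen receptors, egg envelope proteins and related genes), 0 are among the names used here, so no value can be given for them.

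The single named feature that rose was 1 of the 3 pairs of LOC100136761, a protein-coding gene to which the tables used here give no other name. Spots 6030209 and 6030210 had log2 ratios of 2.39 and 1.13 in E2 sample 1 and of 1.65 and 1.15 in sample 2. All 4 arrays were above 1, the mean was 1.58 ± 0.25 (SD, n = 2; limma adjusted p = 2.6e-05), 2.99-fold higher in E2 than in the pool, and the pair ranked 14 from the top of the array. The other 2 pairs of the same gene, printed from other clones, had means of -0.26 and 0.21 and were not called. Averaged over its 3 pairs the gene stood at 0.51 (limma adjusted p = 0.029), so its value rests on which clone is read.

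Among chaperones, which help other proteins fold, 2 of 5 named pairs were lower in E2, beside 3.64% of all pairs. Both are prints of 1 clone of hsp90ab1, the cytosolic Hsp90 beta, so they are not independent. Spots 6040611 and 6040612 had -0.56 and -1.08 in E2 sample 1 and -0.22 and -1.22 in sample 2. Spots 6040209 and 6040210, printed from the same clone elsewhere on the slide, had -0.24 and -1.11 in sample 1 and -0.43 and -1.20 in sample 2. All 8 values were below 0, and the means of -0.77 ± 0.07 and -0.74 ± 0.10 (SD, n = 2 each; limma adjusted p = 0.0049 and 0.0083) differed by 0.026. The third hsp90ab1 pair, from another clone, had a mean of 0.02, and averaging all 3 gave -0.50 (limma adjusted p = 0.037). The constitutive heat shock protein hspa8 stood at -0.003 and 0.05 in its 2 pairs, neither of them called. The arrays of the former pair disagreed by dye, with -0.99 and -0.32 with E2 in Cy3 and 0.53 and 0.76 in Cy5. From 1 E2 sample neither hsp90ab1 pair passed the threshold: the adjusted p was 0.127 and 0.0768 without sample 1, and 0.0526 and 0.126 without sample 2.

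Of 3 pairs for genes of the extracellular matrix, 1 was lower in E2, beside 3.64% of all pairs. This was col1a2, the alpha-2 chain of the fibrillar collagen type I, at -0.20 and -1.31 in sample 1 and at -0.52 and -1.40 in sample 2. Its mean was -0.86 ± 0.14 (SD, n = 2; 1.81-fold lower in E2, limma adjusted p = 0.0024), and all 4 arrays lay below 0; without sample 2 the adjusted p was 0.0763. The 2 pairs of sparc, a secreted glycoprotein that binds collagen, stood at 0.41 (adjusted p = 0.19) and -0.08, and were not called. These genes are also markers of fibroblasts and stellate cells, and the other cell types listed have few names here: 0 of 8 immune and 0 of 3 endothelial markers were measured under a name. In bulk liver, fewer cells of a type and less RNA per cell cannot be told apart.

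Red blood cell genes gave 1 call among 2 named pairs, beside 5.98% of all pairs, and so few pairs say little about the group. LOC100135826, which the gene table lists as CA2 and which encodes a carbonic anhydrase, an enzyme that interconverts CO2 and bicarbonate, had 0.13 and -1.73 in E2 sample 1 and -0.21 and -1.19 in sample 2. On 3 of the 4 arrays it was below 0 and the arrays with E2 in Cy5 were the lower ones in both samples. The mean was -0.75 ± 0.07 (SD, n = 2; 1.68-fold lower in E2, limma adjusted p = 0.0039), and without sample 1 the adjusted p was 0.113. LOC100136291, listed as the beta globin hbb4, was below 0 on all 4 arrays, between -0.57 and -0.11, with a mean of -0.33 ± 0.01 (SD, n = 2), and was not called (limma adjusted p = 0.30). Both red cell pairs were thus negative, with a median of -0.54 against -0.12 over the named pairs and 0.03 over all pairs. Of the named pairs 73.5% were below 0, so 2 negative pairs are little beyond that share. The share of blood in the samples was not tested.

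The remaining named groups held no call in E2. Plasma proteins made by liver cells all had small negative means. The precursor of alpha-1-microglobulin and bikunin, ambp, stood at -0.29 and -0.26 in 2 pairs of the same clone. In both ambp pairs the arrays disagreed by dye: 0.04 to 0.40 with E2 in Cy3 and -1.02 to -0.64 in Cy5. The plasma protease inhibitor antiprot1 stood at -0.25, with all 4 arrays below 0. In lipid metabolism, the delta-6 desaturase fd6d, which makes long-chain polyunsaturated fatty acids, had 0.30, and the nuclear receptor pparg, which drives fat storage, had -0.11. The fd6d mean rests largely on 1 array, at 1.04 (sample 1, E2 in Cy3), beside -0.04 to 0.16 on the others. The 2 pairs under the symbol sod1, a superoxide dismutase, had -0.20 and -0.19 and belong to different gene entries. The cytochrome P450 cyp1a3, a detoxifying enzyme, stood at 0.06 in E2 (95% interval -0.32 to 0.43). Its arrays disagreed by dye, with -0.66 and -0.18 with E2 in Cy3 and 0.45 and 0.62 in Cy5. The same pair was also near 0 in BNF (0.10, limma adjusted p = 0.96), and whether it can register a response was not tested. The ribosomal protein rps7 stood at -0.04 in E2, also from arrays that disagreed by dye (0.53 and 0.66 with E2 in Cy3, -0.80 and -0.55 in Cy5). The peptide transporter tap1 and its partner tapbp, both of antigen presentation, had 0.41 and 0.20. For tap1, 1 array stood at 1.09 (sample 1, E2 in Cy3) and the others at 0.05 to 0.32. LOC100136295 was represented by 5 pairs, some of them prints of the same clone, with means between -0.35 and -0.16. Their arrays also disagreed by dye, from -0.03 to 0.49 with E2 in Cy3 and from -1.34 to -0.36 in Cy5. LOC100136258 came closest to the threshold, at -0.73 ± 0.20 (SD, n = 2; limma adjusted p = 0.065), with all 4 arrays below 0. For a typical pair the 95% interval reached 0.36 to each side of the mean (median over pairs).

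**Figure D2:**
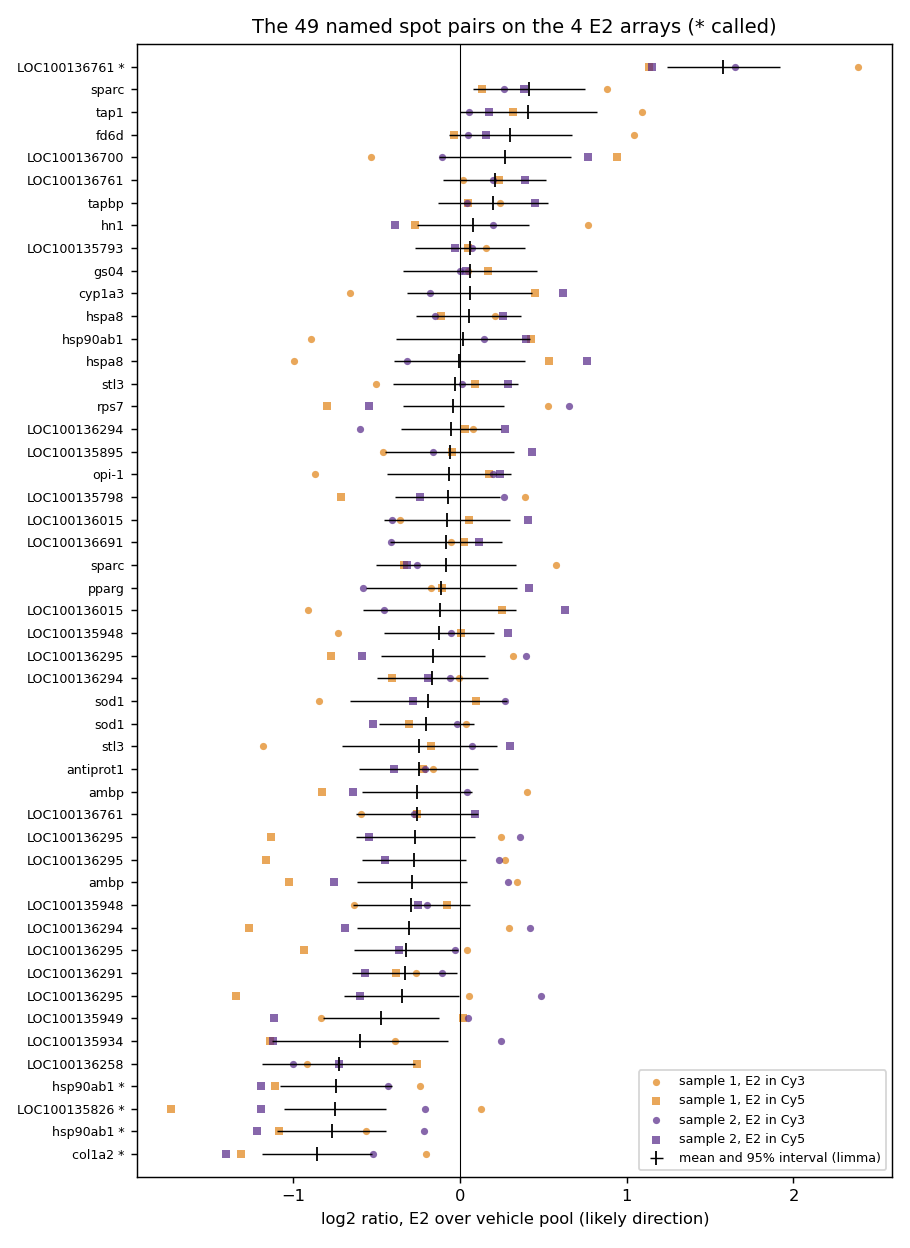
Log2 ratio of E2 over the vehicle pool (horizontal axis, likely direction) for each of the 49 named spot pairs, 1 row per pair, with a point for each of the 4 arrays and a tick and line for the limma mean and its 95% interval. The 5 called pairs are starred: LOC100136761 stands alone at 1.58, and col1a2, 2 pairs of hsp90ab1 and LOC100135826 lie between -0.86 and -0.74, where the arrays with E2 in Cy5 (squares) are the lower ones.

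Repeated features show how exact a value is for 1 gene symbol. When the same clone was printed at 2 places (4 comparisons), the E2 means differed by 0.026 to 0.16, with a median of 0.053. When different clones carried the same gene symbol (22 comparisons in 10 symbols), they differed by 0.0099 to 1.84, with a median of 0.13. The symbol sod1 among them covers 2 gene entries. The largest of these differences is the one in LOC100136761. Prints of 1 clone thus lay at most 0.16 apart in these 4 comparisons, while clones of the same symbol could lie up to 1.84 apart. The 25th and 75th percentiles of all pairs were -0.12 and 0.17, so unrelated pairs can lie close as well. Their differences were not set beside these.

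The pairs called in E2 were next read in the other diets. All diets share the vehicle pool, so the values below are set side by side and their likeness is no test. The 102 pairs higher in E2 had medians of 0.999 in E2, -0.12 in BNF, 0.43 and 1.15 in I3C at 500 and 1500 ppm, and 1.23 and 1.34 in DIM at 500 and 1500 ppm. The 159 pairs lower in E2 had medians of -0.81 in E2, -0.13 in BNF, -0.43 and -0.84 in I3C at 500 and 1500 ppm, and -1.10 and -0.92 in DIM at 500 and 1500 ppm. The E2 value was therefore near that of the high indole diet, and the BNF value was close to 0 on both sides. LOC100136761 followed the same order, with 1.58 in E2, 0.01 in BNF, 0.79 and 1.61 in I3C at 500 and 1500 ppm, and 1.85 and 1.95 in DIM at 500 and 1500 ppm. For col1a2 the BNF diet was closer to the rest, with -0.86 in E2, -0.47 in BNF, -0.70 and -0.82 in I3C, and -1.06 and -1.03 in DIM.

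**Figure D3:**
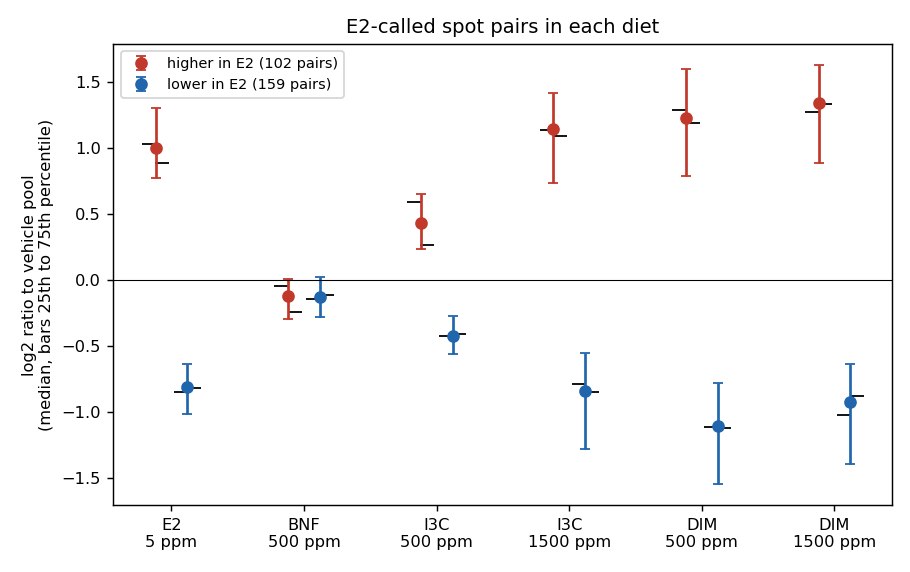
Median log2 ratio to the vehicle pool (vertical axis) of the 102 pairs called higher in E2 (red) and the 159 called lower (blue) in each diet, with bars from the 25th to the 75th percentile and short black lines for the medians of the 2 RNA samples. E2 stands at 0.999 and -0.81 and BNF at -0.12 and -0.13; the pairs were chosen on the E2 arrays, and all diets share the pool.

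The second comparison asked where E2 differed from the rest of the series, as the E2 mean minus the mean of the other 5 diets, in which the pool cancels. Here 10 of 4368 pairs were called by limma (0.229%), 4 higher in E2 (0.0916%) and 6 lower (0.137%), and 157 had an unadjusted p under 0.05. The 157 make up a smaller share of the pairs than the 0.05 that such a threshold passes on average when no pair differs. None of the 10 has a gene name. The 95% interval of the difference lay within 1 log2 unit of 0 for 4272 of the 4368 pairs. It did so for 237 of the 261 called against the pool, a smaller share. These called pairs had median log2 ratios of 0.999 (higher) and -0.81 (lower) in E2. A margin of 1 therefore does not show that the other diets moved them alike. With the deposited signs 0 pairs were called (128 at an unadjusted p under 0.05). Without E2 sample 1 the count was 18 but held 3 of the 10 pairs, and without sample 2 it was 3 and held 2 of them; spots 10031205 and 10031206 alone were called both times.

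Of the 10, 4 were pairs with an E2 mean near 0 that were not called in E2 against the pool. Some or all of the other diets were called there. Except for spots 10031205 and 10031206, the 2 E2 samples of these pairs lay on opposite sides of 0. Spots 10031205 and 10031206, the lowest of all, had 0.16 and 0.32 in the 2 E2 samples (mean 0.24 ± 0.12, SD), against means of 3.14 in BNF, 1.38 and 2.93 in I3C at 500 and 1500 ppm, and 1.21 and 1.30 in DIM at 500 and 1500 ppm. E2 lay 1.75 ± 0.19 (SE) below the mean of the other diets (limma adjusted p = 0.00099). Spots 1020303 and 1020304 showed the same order, with -0.16 and 0.60 in the E2 samples, against 3.12 in BNF, 1.48 and 2.87 in I3C and 0.94 and 1.14 in DIM (difference -1.69 ± 0.28, SE; limma adjusted p = 0.020). No sample of another diet reached down to the E2 samples in either pair, apart from 1 sample of DIM at 500 ppm in the second. At 0.593 it lay just below the higher E2 sample at 0.598. The highest differences were those of spots 2030307 and 2030308, with -0.51 and 0.22 in the E2 samples, against -0.75 in BNF, -0.15 and -2.48 in I3C and -2.41 and -2.21 in DIM. E2 lay 1.45 ± 0.22 (SE) above the mean of the other diets there (limma adjusted p = 0.014). Spots 3030405 and 3030406 had -0.63 and 0.27 in the E2 samples, against -0.73 in BNF, -0.25 and -2.28 in I3C and -2.38 and -2.18 in DIM (difference 1.38 ± 0.23, SE; limma adjusted p = 0.020). In both of these pairs the E2 samples overlapped with I3C at 500 ppm and lay far from the high indole dose and from DIM. E2 sample 1 also lay near the BNF samples, which had -0.82 and -0.69 in the former pair and -0.77 and -0.69 in the latter. Neither BNF (limma adjusted p = 0.37 and 0.46) nor I3C at 500 ppm (0.78 and 0.67) was called against the pool in these pairs.

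The other 6 were chosen for description after their values were seen. Of these, 3 (spots 10020301 and 10020302, 12020713 and 12020714, and 9031205 and 9031206) are the strongly changed pairs described above, in which BNF stood nearer to 0 than E2. The first had 5.09 in E2, against 0.04 in BNF, 4.39 and 5.04 in I3C, and 4.93 and 5.17 in DIM. E2 lay 1.18 ± 0.20 (SE) above the mean of the other diets (limma adjusted p = 0.020). Its difference from I3C at 1500 ppm alone was 0.05 and was not called. The last had -2.99 in E2, against -0.57 in BNF, -0.96 and -2.70 in I3C, and -3.08 in DIM at both doses. The other 3 pairs were lower in E2 than in every other diet. Spots 12031307 and 12031308 had -1.54 and -1.14 in the E2 samples (mean -1.34), against -0.05 in BNF, -0.16 and 0.41 in I3C and -0.40 and -0.10 in DIM. Spots 11031307 and 11031308 had an E2 mean of -1.18 and spots 10031307 and 10031308 one of -1.14. Their differences were -1.14 ± 0.18 and -1.08 ± 0.21 (SE), with limma adjusted p of 0.020 and 0.049. The calls of these 3 pairs against the other diets were lost with single spots in place of averaged pairs. There the larger limma adjusted p of the 2 spots was 0.083 for spots 12031307, 0.054 for 11031307 and 0.24 for 10031307. On every E2 array these 3 pairs were below 0, more so with E2 in Cy5 (-2.30 to -1.32) than in Cy3 (-0.88 to -0.38). By their spot numbers, they occupy the same position in 3 neighbouring print blocks, and whether they hold the same or related cDNA was not tested.

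**Figure D4:**
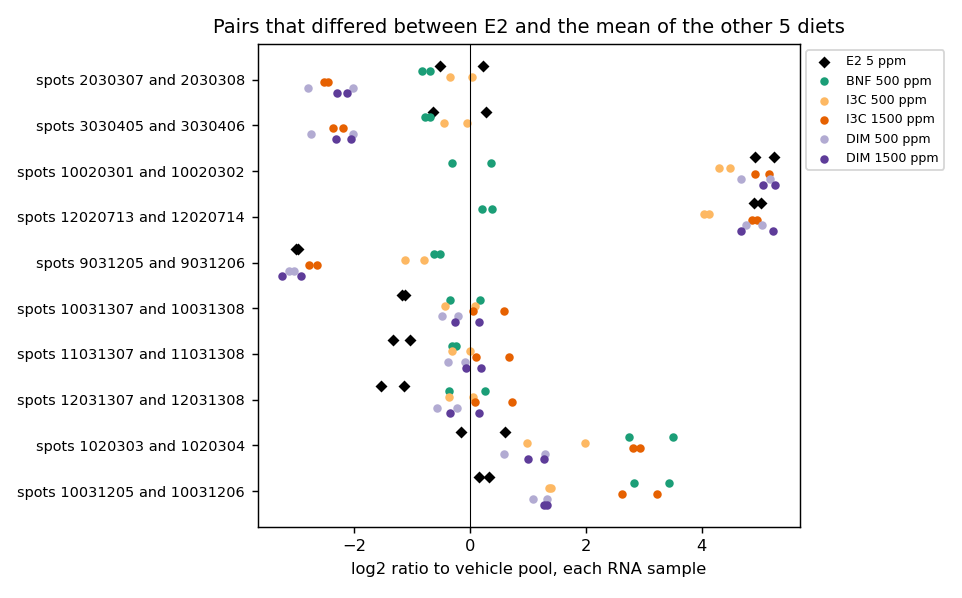
Log2 ratio to the vehicle pool (horizontal axis) in each RNA sample for the 10 spot pairs that differed between E2 (black diamonds) and the mean of the other 5 diets (coloured points). The E2 diamonds lie apart from all other diets in the 3 pairs of spots 10031307, 11031307 and 12031307, with means of -1.34 to -1.14. Their mean is near 0 in the first 2 and last 2 pairs.

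The third comparison set E2 at 5 ppm against I3C at 1500 ppm, the indole diet without turned arrays whose response in the pairs called in E2 was closest in size. A small difference in those pairs is therefore no finding. The doses differ and the compounds are not analogs, so the difference is one between these diets. Limma called 11 of 4368 pairs (0.252%), 4 higher in E2 (0.0916%) and 7 lower (0.16%), with 179 at an unadjusted p under 0.05. The 179 again make up a share of the pairs under 0.05. Of the 11 called, 8 were not called in E2 against the pool. None is named. The 4 pairs with an E2 mean near 0 described above were among the 11. Their E2 minus I3C differences were -2.69, -2.65, 2.34 and 2.10 on the log2 scale. The 3 pairs low in E2 alone were also among the 11, at -1.74 to -1.47. The remaining 4 were chosen for description after their values were seen. Spots 7010303 and 7010304 had -0.46 in E2 and -1.55 in I3C, and spots 3020405 and 3020406 had -0.38 in E2 and -1.40 in I3C. Spots 2030607 and 2030608 had 0.02 in E2 and 1.33 in I3C, and spots 6030607 and 6030608 had -0.11 in E2 and 1.26 in I3C. For the 5 named pairs called in E2 the difference, given as a description, was -0.03 for LOC100136761, -0.04 for col1a2, -0.003 for LOC100135826, and -0.25 and -0.24 for hsp90ab1. With the deposited signs 0 pairs were called (242 at an unadjusted p under 0.05), and the count was 19 without E2 sample 1, of which 7 were among the 11, and 4 without either I3C sample.

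The difference between the E2 samples changed across the slide. By print block, the median of sample 2 minus sample 1 ran from -0.18 to 0.07 in block rows 1 to 4 and from 0.29 to 0.52 in block row 12, the last. The log2 ratios of the samples lay over 1 apart in 71 pairs, 61 of them higher in sample 2 and 10 higher in sample 1, and over 2 apart in 9, all higher in sample 2. Of those 9 pairs, 7 lay in the print block in row 12, column 2, around the strongly raised pair of spots 12020713 and 12020714. Its 5 direct neighbours on the print grid had a median of 2.52 in E2 sample 2 (1.72 to 3.52), against -0.02 in E2 sample 1 (-0.28 to 0.50). At 2 steps the medians were 0.74 in sample 2 and -0.25 in sample 1, at 3 steps 0.51 and -0.26, and at 4 or more steps 0.17 and -0.30. The neighbouring block in row 12, column 1 had a median difference of 0.502, close to the 0.518 of this block. Both arrays of sample 2 showed it, with medians of 3.54 (E2 in Cy3) and 1.85 (E2 in Cy5) among the direct neighbours. In the other diets the medians of the same 5 neighbours ran from -0.12 to 0.85. Of the 5 neighbours, 2 were among the called pairs, which were chosen for description after their values were seen: spots 12020611 and 12020612 (1.11 ± 0.86, SD) and spots 12020813 and 12020814 (1.32 ± 1.59, SD). In sample 1 they stood at 0.50 and 0.20. The strong pair itself had 5.03 in sample 1, where its neighbours were near 0. Leaving the whole block of 91 pairs out gave 258 calls. Centring every print block on its own median gave 261 calls, 236 of them shared. A cause for either pattern was not tested.

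**Figure D5:**
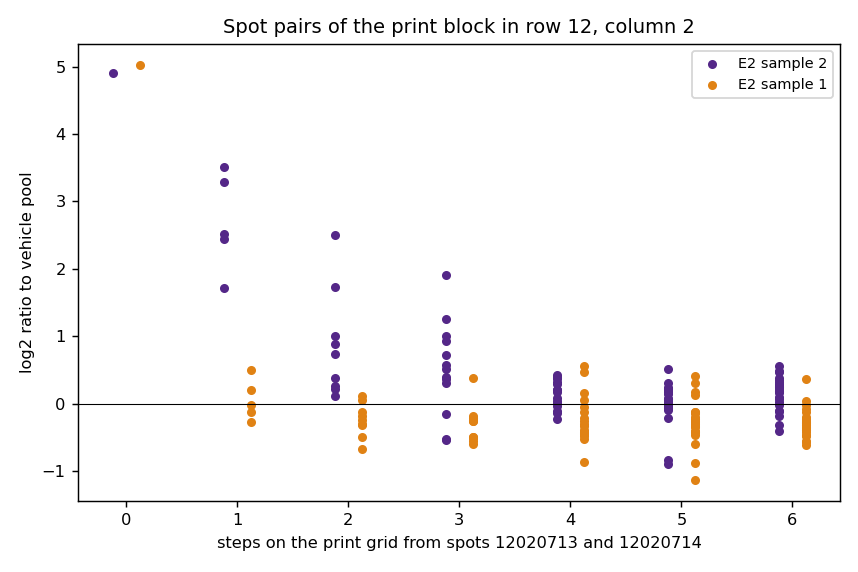
Log2 ratio to the vehicle pool (vertical axis) of the spot pairs of the print block in row 12, column 2, by their distance in grid steps from spots 12020713 and 12020714 (horizontal axis, shown up to 6 steps), in E2 sample 2 (purple) and E2 sample 1 (orange). In sample 2 the values fall with distance, with a median of 2.52 at 1 step and 0.51 at 3 steps, while in sample 1 the medians stay between -0.30 and -0.02.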

How the data were processed

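Each of the 24 deposited columns holds a value for each of 8736 spots, with 0 missing. Per the labels, the authors read the slides on a ScanArray scanner with QuantArray software; how they corrected background and normalised, and the log base, is not given in the sources used here. From the values, 23 deposited columns are log ratios, taken as log2 (a natural log would make every change larger), and 1 deposited column, BNF sample 1 in Cy5, is a linear ratio, converted to log2. Deposited medians ran from -0.81 to 1.05, so arrays were median-centred. Neighbouring spots were averaged to 4368 pairs and dye swaps to 12 RNA samples, and limma 3.58.1 (R 4.3.3, statmod 1.5.0) was fitted with 1 mean per diet and empirical Bayes moderation; pairs with a Benjamini-Hochberg adjusted p under 0.05 were called. Changes of 0.5, 1 and 2 log2 units were put into 10 simulated sets of 4368 pairs. The E2 against pool test recovered 28.1%, 87.8% and 99.7% of them, with 75 false calls over all sets. E2 minus the other 5 diets recovered 20.4%, 82.7% and 99.2%, with 75 false calls. E2 minus I3C at 1500 ppm recovered 6.27%, 58.5% and 96.5%, with 69 false calls, so few calls there do not show likeness. The simulated noise was normal and independent between pairs, without dye bias, turned signs or change across the slide. The recovered shares may therefore be too high for these arrays.

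The members, gene lists and comparisons were chosen with earlier results of these data known. All named pairs were accounted for; unnamed pairs are the 2 highest and 2 lowest called against the pool with the same sign on all 4 E2 arrays, and the 2 highest and 2 lowest called against the other diets. The RefSeq gene table (assembly USDA_OmykA_1.1) held 27 of the 33 annotated Entrez genes and gave their current symbols; no coordinates are printed, since the files name no build. No sequences were used here. Alternatives varied centring, scaling, spot averaging, the turned signs, weights, the dye profile, print blocks, the unit of the fit and the samples.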

Additional observations from a re-analysis of the deposited data

How the results depend on the processing

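For E2 against the pool, uncentred arrays gave 441 calls, 50 higher and 391 lower, as the median of all pairs moved to -0.34; scaling all arrays to 1 spread gave 320, deposited signs gave 0, and leaving out both turned samples (chosen after the data were seen) gave 112. Leaving out 1 E2 sample gave 127 to 156. The other settings gave 183 to 362 calls. For E2 minus the other 5 diets, the count was 4 with scaled arrays (0 higher), 3 with single spots, 0 with deposited signs, 1 with array weights, 3 with centred print blocks, and 3 to 18 without 1 E2 sample. For E2 minus I3C at 1500 ppm, it was 4 with scaled arrays (0 higher), 6 with single spots, 0 with deposited signs, 7 without the turned DIM sample, 23 from 24 arrays, 11 with centred print blocks (6 higher), and 4 to 19 without 1 sample. The replicate block gave 252, 9 and 10 calls and changed no call of a named gene. It ended the call of spots 10031307 against the other diets (limma adjusted p = 0.0584). It also ended those of spots 3020405 and 7010303 against I3C (0.0683 and 0.0523). Same-numbered samples deviated together (r above 0.1) in 6 of 15 diet pairs. The r ran from -0.60 to 0.46 with a median of 0.065. The numbers were therefore not taken to pair the samples, though single diet pairs did deviate together or oppositely. Deposited signs alone turned directions. Against the pool they gave -0.18 for LOC100136761, 0.053 and 0.050 for hsp90ab1 (spots 6040611 and 6040612) and LOC100135826, and -0.16, -0.059, 0.43 and 0.016 for spots 10020301, 12020713, 3010407 and 9031205. Against the other diets they gave -3.14, -2.88 and 1.49 for spots 10020301, 12020713 and 9031205, and 0.0016, 0.17 and 0.21 for spots 10031307, 11031307 and 12031307. Over all single features and settings, 336 results kept direction and side of the threshold, 125 lost their call and 13 reversed. Without both turned samples the calls of hsp90ab1 (adjusted p = 0.203 and 0.128) and LOC100135826 (0.192) were lost. Averaging the features of a gene kept all named calls. The causes were not tested. Spot intensities, and so limits by signal over background, were not used here.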
